A study of Homo sapiens with 43 samples.

Results

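H2087 is an established human lung adenocarcinoma cell line, and the comparison described here sets its latency-competent derivatives (LCC) against the parental cells in mitogen-rich medium (MRM). The 6 LCC libraries come from the derivatives LCC1 to LCC6, which the labels describe as isolated from an organ with no BLI signal, with 1 library each. The 2 parental libraries are of the unselected line. All cells were grown for 48 h below confluence before total RNA was extracted for sequencing. The same derivatives and the parental cells were also sequenced in mitogen-low medium (MLM), again as 6 LCC and 2 parental libraries, and those values are used only for contrast. The members are the 12495 of 18085 genes with a mean of at least 10 normalized counts over the 8 MRM libraries, which are 8 of the 43 samples of the series. The labels do not say whether a derivative is a clone or a pool, nor whether libraries are separate cultures, so the p-values here speak only of the spread among the 8 libraries, which may in part be technical.

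As background, metastatic latency is the state in which disseminated cancer cells persist in an organ without forming a growing lesion. It has been linked to slow cycling, to restraint of WNT signalling by secreted antagonists such as DKK1, to stem-like SOX transcription factors and to reduced ligands for natural killer (NK) cells. Mitogen-rich medium provides the growth factors that drive ERK and cyclin D signalling, so it asks what remains different between derivatives and parental cells when growth is not limited.

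The LCC libraries held 16.2 to 20.8 M reads and the parental libraries 18.1 and 12.1 M. A value is the authors' normalized count, and 1 read is worth 1.47 to 2.36 of it in these libraries. The MLM libraries were deeper, at 44.6 to 55.7 M reads, so medium and depth move together. Markers of a lung epithelial line were present. EPCAM had 6501 to 35191 normalized counts (median 11239) in LCC libraries, against 10947 and 10455 in parental libraries, KRT8 had 55493 to 163026 normalized counts (median 62962) in LCC libraries, against 40208 and 45377 in parental libraries, KRT18 had 65845 to 162987 normalized counts (median 76008) in LCC libraries, against 49000 and 55804 in parental libraries, and the lung lineage factor NKX2-1 had 4149 to 6892 normalized counts (median 4950) in LCC libraries, against 5154 and 5535 in parental libraries, none of them called. SFTPB, a surfactant protein, had 223 to 2181 normalized counts (median 1017) in LCC libraries, against 3716 and 3396 in parental libraries (adjusted p = 0.0997), and NAPSA, an aspartic protease of lung adenocarcinoma, had 125 to 514 normalized counts (median 381) in LCC libraries, against 166 and 168 in parental libraries (adjusted p = 0.183). In bulk RNA, fewer cells of a type and less RNA per cell cannot be told apart.

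The libraries labelled LCC5 and LCC6 stood close together in MRM. Their reads differed by a chi-square of 6.93 per degree of freedom over genes, against 25.9 to 111 for the other pairs of LCC libraries and 3.85 for the parental pair, and each of these is above sampling noise. Deviations of a library from its group mean, correlated over 10571 genes between media as a description, were 0.683 to 0.773 for LCC1 to LCC5 with themselves. The library labelled LCC6 in MRM correlated at 0.53 with LCC5 in MLM and at 0.415 with LCC6 in MLM. The amino acid transporter gene SLC6A15 had 1052 normalized counts in LCC6 and 1144 in LCC5 in MRM, against 33.2 in LCC6 and 385 in LCC5 in MLM. Counts of list members called are therefore also given without LCC6 where they differ. Whether the label is at fault was not tested.

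Of the 12495 genes tested, 1094 (8.76%) were called higher and 728 (5.83%) lower in LCC libraries, 14.6% in all. Calls are from limma on log2(normalized count + 1), with p-values adjusted by Benjamini-Hochberg over all genes tested and a threshold of 0.05. The fold changes below are on that scale, LCC minus parental, ± SE. Without LCC6 the counts were 915 higher and 589 lower, and with LCC5 and LCC6 averaged into 1 they were 874 and 543. The median fold change was 0.79 among genes called higher and −0.68 among genes called lower, beside −0.002 over all genes tested. Fold changes beyond 2 on the log2 scale were seen for 187 genes called higher and below −2 for 75 called lower. In 1821 of the 1822 called genes every LCC library lay on 1 side of both parental libraries, as did 38.0% of all genes tested. When libraries were scaled to their total reads, 828 genes were called higher and 1207 lower, so the share called higher was 40.7%, with the median of all genes moved to −0.094.

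Both parental libraries were needed for most calls. Without parental library 1, 143 genes were called, and without parental library 2, 215, with the lone parental library assumed to vary like the LCC libraries. Of 109 called genes described by value below, 31 kept their call without each single library in turn and 64 lost it only when a parental library was left out. The other 14 also lost it without at least 1 LCC library and are named where they occur. Of 8 more called genes given by values alone (ENTPD3, IRX3, TNFRSF1B, UCHL1, PCDHB13, PCDHB16, ZNF85 and ZNF486), 4 kept it, IRX3 lost it without parental library 1, ZNF486 without parental library 2, and TNFRSF1B and UCHL1 without either. Ranges given after a lost call are the gene's log2 fold changes over all single omissions. The fold change kept its sign under each omission for the 109, and each had all 6 LCC libraries on 1 side of both parental libraries.

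The parental mean in MLM was nearer to the LCC mean in MRM than the parental mean in MRM was for 1328 of the 1822 called genes (72.9%), against 61.3% of all genes tested. Among genes called higher, parental libraries differed between MRM and MLM by a median of −0.73 on the log2 scale, and LCC libraries by −0.08. Among genes called lower the medians were 0.70 in parental and 0.15 in LCC libraries. The share was 79.7% for the 187 called genes with a fold change over 2, and 61.3% for the 75 with one under −2, the same as over all genes tested. By these medians the parental cells differed between media more than the LCC cells did. Since the same MRM parental libraries enter the call and this split, the split is a description and was not tested.

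**Figure D1:**
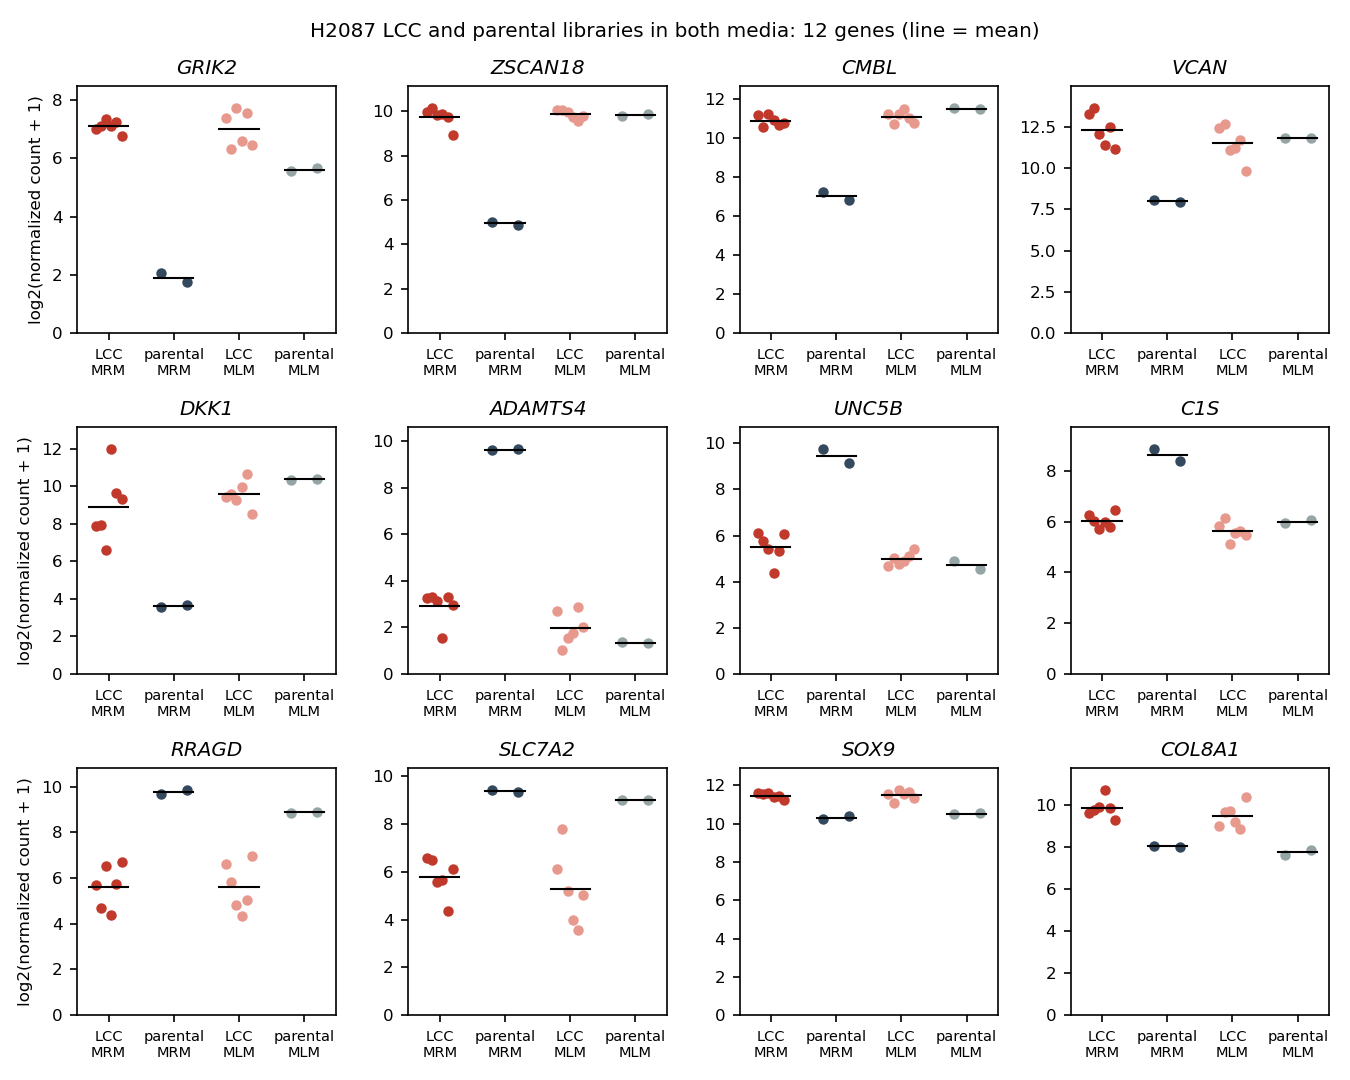
Each panel plots 1 gene as log2(normalized count + 1), with 1 point per library and the group mean as a line, for LCC and parental libraries in MRM and then in MLM. In ZSCAN18, CMBL, VCAN, DKK1, ADAMTS4, UNC5B and C1S the parental libraries in MRM stand apart from the other 3 groups, while in RRAGD, SLC7A2, SOX9 and COL8A1 LCC and parental libraries are apart in both media. GRIK2 is lowest in the parental libraries in MRM, and in MLM its LCC libraries also lie above the parental ones.

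The genes with the largest rise in LCC libraries were silent or low in parental cells in MRM. GRIK2, a kainate-type glutamate receptor subunit, had 108 to 163 normalized counts (median 138) in LCC libraries, against 3.16 and 2.36 in parental libraries. With 493 LCC and 3 parental reads, the ratio of depth-corrected counts was 48.6 (exact 95% counting interval 16.5 to 237, adjusted p of the log2 values = 6.73e-05). MME, the cell surface peptidase neprilysin, had 29.1 to 1047 normalized counts (median 248) in LCC libraries, against 1.58 and 0 in parental libraries, a ratio of 342 with an interval of 61.3 to 13500, since it rests on 1 parental read (adjusted p = 0.00644). TCN1, a vitamin B12 carrier, had 43.4 to 525.6 normalized counts (median 78.8) in LCC libraries, against 3.16 and 2.36 in parental libraries, a ratio of 50.8 with an interval of 17.3 to 247 on 3 parental reads (adjusted p = 0.00734). These intervals cover counting error only. The levels of GRIK2 stayed within a narrow band across the 6 derivatives, while MME and TCN1 spread over more than 10-fold. CMBL, a carboxymethylenebutenolidase homolog, had 1503 to 2399 normalized counts (median 1832) in LCC libraries, against 147 and 113 in parental libraries (fold change 3.85 ± 0.2, adjusted p = 6.73e-05). MARK1, a microtubule affinity regulating kinase, had 56.4 to 352 normalized counts (median 181) in LCC libraries, against 7.91 and 4.73 in parental libraries (4.57 ± 0.58, adjusted p = 0.00257). NHS, an actin remodelling regulator mutated in Nance-Horan syndrome, had 448 to 1643 normalized counts (median 1210) in LCC libraries, against 56.9 and 42.5 in parental libraries (4.41 ± 0.45, adjusted p = 0.00116). These 3 genes and GRIK2 kept their calls without each single library. CRISPLD1, a secreted CAP-domain protein gene, had 25.6 to 319 normalized counts (median 111) in LCC libraries, against 6.33 and 0 in parental libraries (5.42 ± 1.0, adjusted p = 0.0105), and lost its call without parental library 2 (3.98 to 6.85 for CRISPLD1, over the omissions). The calls of MME and TCN1 were lost without either parental library, with fold changes of 6.28 to 7.65 for MME and 4.34 to 5.06 for TCN1 over the single omissions.

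Several genes that were silent or low in parental cells in MRM lie in runs of neighbouring genes that rose together, described further on. ZNF93, a KRAB zinc finger repressor of retrotransposons, had 96.8 to 180 normalized counts (median 155) in LCC libraries, against 6.33 and 0 in parental libraries (5.69 ± 0.64, adjusted p = 0.00172). ZSCAN18, a zinc finger gene at the end of chromosome 19, had 496 to 1123 normalized counts (median 925) in LCC libraries, against 31.6 and 28.4 in parental libraries (4.8 ± 0.27, adjusted p = 0.000113). Every LCC library exceeded both parental libraries by more than 10-fold in ZSCAN18, and both genes kept their calls without each single library. In MLM the ZSCAN18 levels were 749 to 1066 in LCC libraries, against 895 and 950 in parental libraries. The ZSCAN18 promoter window, 250 bases before to 50 after the RefSeq gene start (GRCh38.p14, chr19:58118355-58118654, minus strand), is shown because the gene was far lower in 2 of the 16 libraries than in the other 14. It holds 36 CG dinucleotides, written in capitals and the same on both strands, beside a median of 26 in the promoters of tested genes and 14 in all 27305 promoters of the table.
ZSCAN18: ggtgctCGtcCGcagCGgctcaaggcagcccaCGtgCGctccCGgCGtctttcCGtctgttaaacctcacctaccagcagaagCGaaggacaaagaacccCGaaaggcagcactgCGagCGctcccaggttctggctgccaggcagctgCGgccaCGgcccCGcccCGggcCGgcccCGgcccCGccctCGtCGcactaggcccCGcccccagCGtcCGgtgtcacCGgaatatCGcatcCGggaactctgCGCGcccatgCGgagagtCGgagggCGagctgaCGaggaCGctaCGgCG
No methylation was measured in these data, and the count of CG describes the letters only.

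ADAMTS4 and KCNJ12 fell most among the genes described by value, followed by CCL2, ELMOD1 and RRAGD, which are described with their groups. ADAMTS4, an aggrecan-cleaving protease, had 1.95 to 8.97 normalized counts (median 8.13) in LCC libraries, against 783 and 794 in parental libraries (−6.7 ± 0.5, adjusted p = 0.000284). It was close to the value of a few reads in every LCC library, and in MLM it had 1.02 to 6.27 in LCC libraries, against 1.62 and 1.48 in parental libraries, so parental cells in MRM were the one group with a high level. UNC5B, a netrin receptor, had 19.5 to 68.2 normalized counts (median 47.3) in LCC libraries, against 849 and 567 in parental libraries (−3.93 ± 0.45, adjusted p = 0.00172), and in MLM 24.8 to 41.8 in LCC libraries, against 28.6 and 22.8 in parental libraries. KCNJ12, an inward rectifier potassium channel, had 0 to 37.6 normalized counts (median 8.90) in LCC libraries, against 819 and 721 in parental libraries (−6.42 ± 1.24, adjusted p = 0.0124). DMBT1, a scavenger receptor glycoprotein of mucosal surfaces, had 29.3 to 117 normalized counts (median 70.6) in LCC libraries, against 620 and 541 in parental libraries (−3.09 ± 0.47, adjusted p = 0.00456). ECSCR, a cell surface sialomucin known from endothelium, had 7.82 to 138 normalized counts (median 59.5) in LCC libraries, against 517 and 603 in parental libraries (−3.67 ± 0.9, adjusted p = 0.029). MYO1G, a class I myosin known from lymphocytes, had 5.86 to 111 normalized counts (median 29.8) in LCC libraries, against 438 and 442 in parental libraries (−3.77 ± 1.0, adjusted p = 0.0385). ADAMTS4 and UNC5B kept their calls without each single library. The other 4 lost theirs without either parental library, MYO1G also without LCC1 or LCC3, with fold changes over the omissions of −6.84 to −5.79 for KCNJ12, −3.25 to −2.86 for DMBT1, −4.01 to −3.21 for ECSCR and −4.13 to −3.32 for MYO1G.

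Besides GRIK2, CMBL, ZSCAN18, ADAMTS4, UNC5B and FGFR4, described in other places, the genes with the smallest p included these 9. NTN4, a laminin-like netrin, had 2342 to 3149 normalized counts (median 2519) in LCC libraries, against 550 and 515 in parental libraries (2.27 ± 0.12, adjusted p = 6.73e-05). SFN, the epithelial 14-3-3 protein that restrains the G2 transition, had 4045 to 4734 normalized counts (median 4413) in LCC libraries, against 1170 and 1567 in parental libraries (1.7 ± 0.11, adjusted p = 0.000279). TRIB2, a pseudokinase scaffold, had 1915 to 3076 normalized counts (median 2401) in LCC libraries, against 516 and 518 in parental libraries (2.24 ± 0.16, adjusted p = 0.000279). The derivatives differed by less than a factor of 2 in each of these 3 genes. CAMK2N1, an inhibitor of CaMKII, had 2118 to 3518 normalized counts (median 3119) in LCC libraries, against 448 and 425 in parental libraries (2.75 ± 0.19, adjusted p = 0.000279). KLF12, a repressor of the Krüppel-like family, had 280 to 418 normalized counts (median 381) in LCC libraries, against 63.3 and 49.6 in parental libraries (2.69 ± 0.19, adjusted p = 0.000279). ZDHHC14, a palmitoyltransferase, had 350 to 554 normalized counts (median 477) in LCC libraries, against 72.8 and 70.9 in parental libraries (2.68 ± 0.18, adjusted p = 0.000279). On the lower side, C1S, a complement protease, had 51.1 to 85.5 normalized counts (median 63.5) in LCC libraries, against 456 and 331 in parental libraries (−2.57 ± 0.25, adjusted p = 0.000915). ACSS2, which makes acetyl-CoA from acetate, had 793 to 1033 normalized counts (median 935) in LCC libraries, against 2156 and 2082 in parental libraries (−1.19 ± 0.12, adjusted p = 0.000983). SH3TC1, an SH3 and TPR domain gene, had 183 to 285 normalized counts (median 218) in LCC libraries, against 721 and 749 in parental libraries (−1.73 ± 0.18, adjusted p = 0.00116). All 9 kept their calls without each single library.

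Gene lists for pathways, complexes and cell types were then read by their counts, beside 8.76% of genes called higher and 5.83% called lower over all genes tested. No list was tested as a set, and a share above that background is a description of these 8 libraries. The lists were drawn up with earlier results of these data known.

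**Figure D2:**
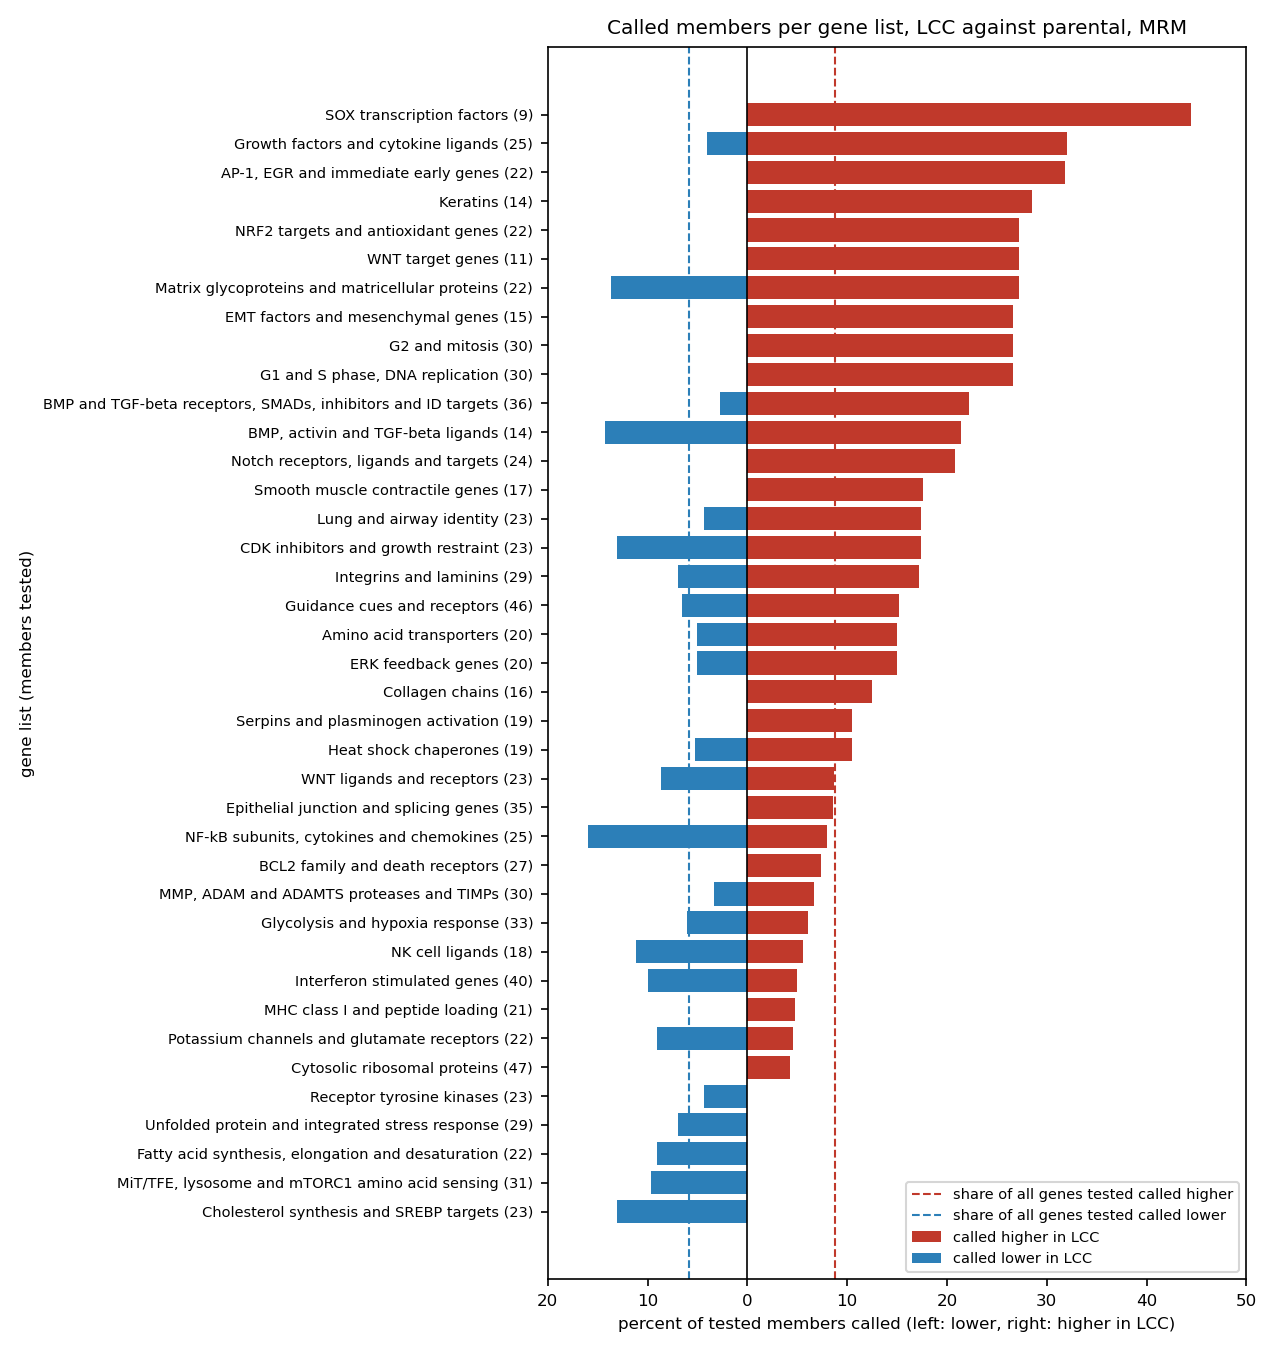
Bars give, for each gene list with at least 9 tested members (number in brackets), the percent of tested members called higher in LCC libraries to the right and called lower to the left. The dashed lines mark 8.76% and 5.83% of all genes tested. SOX factors reach 44.4% higher with none lower. No member is higher in the cholesterol, fatty acid, unfolded protein, MiT/TFE and receptor tyrosine kinase lists.

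SOX transcription factors, which set stem and progenitor states, were called higher in 4 of 9 tested members and lower in none (median 0.44), with or without LCC6. SOX4 had 1725 to 4754 normalized counts (median 2485) in LCC libraries, against 332 and 366 in parental libraries (3.02 ± 0.37, adjusted p = 0.00239). SOX21 had 680 to 1285 normalized counts (median 1088) in LCC libraries, against 168 and 128 in parental libraries (2.79 ± 0.23, adjusted p = 0.000484). SOX9, a distal lung progenitor factor, had 2421 to 3133 normalized counts (median 2888) in LCC libraries, against 1218 and 1333 in parental libraries (1.15 ± 0.11, adjusted p = 0.000915). SOX4, SOX21 and SOX9 kept their calls without each single library. SOX2, an airway progenitor and pluripotency factor, had 730 to 2554 normalized counts (median 1628) in LCC libraries, against 343 and 449 in parental libraries (1.94 ± 0.44, adjusted p = 0.0225), and lost its call without either parental library (1.74 to 2.14 for SOX2). SOX9 was higher in LCC libraries in MLM too, by 0.96 on the log2 scale beside 1.15 in MRM, with 2162 to 3419 in LCC libraries, against 1465 and 1496 in parental libraries, and was called there. SOX4 and SOX21 were not called in MLM.

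Of the WNT antagonists, 1 of 5 tested members was called higher and none lower (median −0.13). That member was DKK1, the LRP receptor antagonist, with 97.6 to 4001 normalized counts (median 450) in LCC libraries, against 11.1 and 11.8 in parental libraries (5.27 ± 1.15, adjusted p = 0.0194). Every LCC library was above both parental libraries, but the derivatives were spread widely, and the call was lost without either parental library (4.65 to 5.72 for DKK1). It was also not called by edgeR, and in MLM it was not called and the groups overlapped, with 371 to 1631 in LCC libraries, against 1314 and 1362 in parental libraries. WNT ligands and receptors had 2 of 23 tested members higher and 2 lower (median 0.01; without LCC6, 1 and 1, and with LCC5 and LCC6 as 1, 1 and 2). WNT7B, a ligand of lung epithelium, had 2910 to 5361 normalized counts (median 3772) in LCC libraries, against 1933 and 2198 in parental libraries (0.88 ± 0.21, adjusted p = 0.0254), and WNT10B, a canonical ligand, had 98.6 to 382 normalized counts (median 165) in LCC libraries, against 813 and 792 in parental libraries (−2.17 ± 0.43, adjusted p = 0.0136). WNT10B was lower in both media. WNT target genes were called higher in 3 of 11 and lower in none (median 0.19): CCND1, TNFRSF19 and BMP4. CCND1, which encodes cyclin D1, had 18999 to 29191 normalized counts (median 22235) in LCC libraries, against 9106 and 9708 in parental libraries (1.27 ± 0.17, adjusted p = 0.0028). TNFRSF19, a TNF receptor family member, had 242 to 770 normalized counts (median 567) in LCC libraries, against 66.4 and 82.7 in parental libraries (2.71 ± 0.4, adjusted p = 0.00437). Without parental library 1 the call of CCND1 was lost (1.2 to 1.32 for CCND1), and those of WNT7B, WNT10B and TNFRSF19 without either (0.79 to 0.98 for WNT7B, −2.39 to −2.0 for WNT10B and 2.56 to 2.92 for TNFRSF19).

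Among BMP, activin and TGF-beta ligands 3 of 14 tested members were called higher and 2 lower (median −0.36; 3 and 1 without LCC6 or with LCC5 and LCC6 as 1). BMP4, a ligand that patterns lung epithelium, had 145 to 664 normalized counts (median 246) in LCC libraries, against 11.1 and 9.45 in parental libraries (4.53 ± 0.51, adjusted p = 0.00172) and kept its call without each single library. TGFB2 had 674 to 1842 normalized counts (median 778) in LCC libraries, against 237 and 213 in parental libraries (2.0 ± 0.35, adjusted p = 0.00826). In MLM, TGFB2 had 251 to 769.5 in LCC libraries, against 943 and 959 in parental libraries, and was not called. INHBE, an activin subunit, had 280 to 1500 normalized counts (median 660) in LCC libraries, against 4018 and 2734 in parental libraries (−2.34 ± 0.56, adjusted p = 0.0263). It lies in a chromosome 12 run of 18 genes with a median of −0.21. Of these, 3 were called lower, INHBE among them, and 1 higher. Receptors, SMADs, inhibitors and ID targets of the pathways had 8 of 36 members higher and 1 lower (median 0.33; 7 and 2 under library total scaling). TGFBR2, the type II receptor of TGF-beta, had 2347 to 3549 normalized counts (median 3260) in LCC libraries, against 1507 and 1517 in parental libraries (1.02 ± 0.15, adjusted p = 0.00445). LTBP1, which holds latent TGF-beta in the matrix, had 1129 to 5669 normalized counts (median 1748) in LCC libraries, against 330 and 331 in parental libraries (2.58 ± 0.54, adjusted p = 0.0163). NOG, the BMP antagonist noggin, had 62.8 to 159 normalized counts (median 104) in LCC libraries, against 304 and 298 in parental libraries (−1.5 ± 0.35, adjusted p = 0.0233). Notch receptors, ligands and targets had 5 of 24 members higher and none lower (median 0.15; 4 without LCC6, and 3 under library total scaling or with LCC5 and LCC6 as 1). NOTCH3 had 939 to 2997 normalized counts (median 1462) in LCC libraries, against 258 and 286 in parental libraries (2.47 ± 0.39, adjusted p = 0.00569), and LFNG, the glycosyltransferase that modifies Notch receptors, had 357 to 634 normalized counts (median 454) in LCC libraries, against 250 and 222 in parental libraries (0.97 ± 0.2, adjusted p = 0.0139). All but BMP4 lost their calls without either parental library, and INHBE also without LCC5, with fold changes of 1.8 to 2.09 for TGFB2, −2.62 to −2.07 for INHBE, 0.98 to 1.1 for TGFBR2, 2.28 to 2.75 for LTBP1, −1.62 to −1.35 for NOG, 2.27 to 2.6 for NOTCH3 and 0.88 to 1.06 for LFNG.

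Matrix glycoproteins and matricellular proteins were called in 9 of 22 tested members, 6 higher and 3 lower (median 0.28), without LCC6 as well. FN1, fibronectin, had 50487 to 254293 normalized counts (median 122297) in LCC libraries, against 8481 and 7804 in parental libraries (3.81 ± 0.52, adjusted p = 0.00323). VCAN, the proteoglycan versican, had 2339 to 12643 normalized counts (median 5076) in LCC libraries, against 262 and 250 in parental libraries (4.33 ± 0.61, adjusted p = 0.00354). SPOCK1, a testican proteoglycan, had 418 to 1679 normalized counts (median 1041) in LCC libraries, against 119 and 99.3 in parental libraries (3.12 ± 0.41, adjusted p = 0.0029). THBS1, an adhesive glycoprotein that activates latent TGF-beta, had 2551 to 17004 normalized counts (median 4964) in LCC libraries, against 784 and 936 in parental libraries (2.9 ± 0.66, adjusted p = 0.0226), and lies in the chromosome 15 run of higher genes. All 6 LCC libraries exceeded both parental libraries in each of them, with a spread of about 5-fold or more between derivatives in FN1 and VCAN. For 8 of the 9 called members the parental level in MLM was nearer to the LCC level in MRM, beside 72.9% of all called genes. FN1 in MLM had 63328 to 214054 in LCC libraries, against 77878 and 75380 in parental libraries. Collagen chains had 2 of 16 members higher and none lower (median 0.02), both also higher in MLM. COL8A1, a short-chain collagen, had 629 to 1676 normalized counts (median 900) in LCC libraries, against 266 and 260 in parental libraries (1.82 ± 0.3, adjusted p = 0.00671), and COL6A1, of beaded filaments, had 4650 to 12645 normalized counts (median 9119) in LCC libraries, against 3044 and 2886 in parental libraries (1.56 ± 0.31, adjusted p = 0.013). The list of EMT factors and mesenchymal genes had 4 of 15 higher and none lower (median 0.29): SNAI2, FN1, TNC and TGFBI. All 6 genes with values here lost their calls without either parental library, with fold changes of 3.58 to 4.04 for FN1, 4.08 to 4.56 for VCAN, 2.96 to 3.36 for SPOCK1, 2.62 to 3.17 for THBS1, 1.66 to 1.94 for COL8A1 and 1.45 to 1.74 for COL6A1.

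Integrins and laminins had 5 of 29 members higher and 2 lower (median 0.09). ITGB8, whose integrin releases active TGF-beta, had 30.8 to 268 normalized counts (median 83.2) in LCC libraries, against 6.33 and 4.73 in parental libraries (3.87 ± 0.75, adjusted p = 0.0126) and lies in a chromosome 7 run. ITGB3, the beta3 integrin subunit, had 561 to 1137 normalized counts (median 860) in LCC libraries, against 2706 and 2496 in parental libraries (−1.68 ± 0.27, adjusted p = 0.00626). Matrix metalloproteases, ADAM and ADAMTS proteases and TIMPs had 2 of 30 higher and 1 lower (median 0.09; without LCC6, 1 higher and 2 lower, and under library total scaling 2 and 3). ADAMTS14, a procollagen propeptidase, had 142 to 430 normalized counts (median 202) in LCC libraries, against 15.8 and 26.0 in parental libraries (3.4 ± 0.46, adjusted p = 0.0032), opposite to ADAMTS4. Serpins and plasminogen activation genes had 2 of 19 higher and none lower (median −0.15; 1 lower without LCC6). PLAT, tissue plasminogen activator, had 40680 to 62046 normalized counts (median 53815) in LCC libraries, against 15225 and 15182 in parental libraries (1.81 ± 0.16, adjusted p = 0.000744). SERPINE2, an inhibitor of plasminogen activators and thrombin, had 947 to 2663 normalized counts (median 1791) in LCC libraries, against 152 and 132 in parental libraries (3.53 ± 0.38, adjusted p = 0.0015). The activator and an inhibitor of it were thus both higher, and both kept their calls without each single library. ITGB8 and ITGB3 lost theirs without either parental library and ADAMTS14 without parental library 1 (3.57 to 4.19 for ITGB8, −1.78 to −1.57 for ITGB3 and 3.06 to 3.74 for ADAMTS14).

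Guidance cues and receptors had 7 of 46 members higher and 3 lower (median 0.10), as without LCC6. SEMA3A, a secreted semaphorin, had 5991 to 8071 normalized counts (median 6467) in LCC libraries, against 1967 and 1947 in parental libraries (1.79 ± 0.13, adjusted p = 0.000279). EFNB2, a membrane ephrin, had 1843 to 2788 normalized counts (median 2416) in LCC libraries, against 612 and 681 in parental libraries (1.82 ± 0.17, adjusted p = 0.000807). With NTN4, these 3 ligands rose, and the calls of SEMA3A and EFNB2 were kept without each single library. The netrin receptor UNC5A had 7.74 to 25.4 normalized counts (median 17.1) in LCC libraries, against 52.2 and 73.3 in parental libraries (−1.88 ± 0.46, adjusted p = 0.0295), in the direction of UNC5B. Its call was lost without LCC5 or without either parental library (−2.12 to −1.64 for UNC5A). The remaining called members were SEMA4B, SEMA7A, PLXNA3 and NRP1 on the higher side and SEMA4G on the lower.

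Growth factors and cytokine ligands were called higher in 8 of 25 tested members and lower in 1 (median 0.65), and in 5 and 1 without LCC6. KITLG, the ligand of the receptor KIT, had 2005 to 3698 normalized counts (median 2232) in LCC libraries, against 361 and 432 in parental libraries (2.61 ± 0.22, adjusted p = 0.00052) and kept its call without each single library. PDGFA, a platelet-derived growth factor chain, had 58.7 to 519 normalized counts (median 308) in LCC libraries, against 33.2 and 35.5 in parental libraries (2.73 ± 0.77, adjusted p = 0.0465). Its call was lost without any of LCC1, LCC3, LCC4, LCC5 and LCC6 and without either parental library (2.51 to 3.13 for PDGFA). FGF19, an endocrine fibroblast growth factor, had 10.2 to 60.6 normalized counts (median 11.3) in LCC libraries, against 106 and 120 in parental libraries (−2.85 ± 0.65, adjusted p = 0.0225), with LCC4 above the other 5 derivatives, and lost its call without either parental library (−3.24 to −2.75 for FGF19). AREG and BTC lie in a run of neighbouring genes whose median was higher, FGF1 was higher in a run whose median was lower, and NRG1, PGF and PDGFD completed the higher members. Of the receptor tyrosine kinases 1 of 23 was called, lower (median 0.33). That was FGFR4, a receptor of FGF19, with 976 to 1518 normalized counts (median 1204) in LCC libraries, against 3389 and 3337 in parental libraries (−1.51 ± 0.16, adjusted p = 0.00149). It kept its call without each single library and was lower in MLM too, with 295 to 454 in LCC libraries, against 1652 and 1717 in parental libraries.

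Genes read as signs of ERK and immediate early signalling were higher in part in MRM. AP-1, EGR and immediate early genes were called higher in 7 of 22 and lower in none (median 0.37; without LCC6, 7 and 1). JUN had 3732 to 9697 normalized counts (median 7493) in LCC libraries, against 2519 and 2640 in parental libraries (1.4 ± 0.3, adjusted p = 0.018), and FOSL1, the partner FRA-1, had 11972 to 18162 normalized counts (median 15679) in LCC libraries, against 6040 and 6877 in parental libraries (1.25 ± 0.16, adjusted p = 0.0029). FOSL2, IER2, IER5, KLF10 and ZFP36 were the other called members. ERK feedback genes had 3 of 20 higher and 1 lower (median 0.31; 2 lower under library total scaling). SPRY2 had 1385 to 2159 normalized counts (median 1907) in LCC libraries, against 764 and 778 in parental libraries (1.25 ± 0.17, adjusted p = 0.00314) and SPRED1 had 2254 to 3111 normalized counts (median 2921) in LCC libraries, against 1219 and 1345 in parental libraries (1.12 ± 0.12, adjusted p = 0.0015), both inhibitors of RAS to ERK signalling, SPRED1 in the chromosome 15 run. IER3, an early response gene, had 2102 to 3980 normalized counts (median 3445) in LCC libraries, against 6014 and 5469 in parental libraries (−0.85 ± 0.22, adjusted p = 0.0366). SPRED1 kept its call without each single library. IER3 lost its call without LCC1, LCC3 or either parental library (−0.92 to −0.73 for IER3), JUN without either parental library (1.3 to 1.58 for JUN), and FOSL1 and SPRY2 without parental library 1 (1.15 to 1.34 for FOSL1 and 1.2 to 1.33 for SPRY2). Of the called members of both lists, 0 were called in the same direction in MLM. Over all genes, 11.3% of those called higher in MRM and 21.4% of those called lower were called the same way in MLM. There FOSL1 had 22090 to 32846 in LCC libraries, against 23859 and 24530 in parental libraries. JUN had 3919 to 8129, against 6437 and 6365, and CCND1 26248 to 29955, against 24118 and 24513. The interaction described further on was called for 6 of the 7 AP-1 list calls and 2 of the 4 ERK feedback calls. Its share was 34.1% among all genes called in MRM.

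Some cell cycle genes rose by small amounts in LCC libraries. Of the G1 and S phase and DNA replication genes 8 of 30 were called higher and none lower (median 0.24), and of the G2 and mitosis genes 8 of 30 and none (median 0.23; 7 without LCC6). Under library total scaling the counts were 5 and 6 higher. CDC6, a replication licensing factor, had 2149 to 2777 normalized counts (median 2392) in LCC libraries, against 1321 and 1420 in parental libraries (0.8 ± 0.1, adjusted p = 0.0028). CDT1, its partner, had 1954 to 2513 normalized counts (median 2077) in LCC libraries, against 1227 and 1538 in parental libraries (0.63 ± 0.12, adjusted p = 0.0134). RRM2, the ribonucleotide reductase subunit, had 6345 to 8268 normalized counts (median 7347) in LCC libraries, against 4483 and 5506 in parental libraries (0.55 ± 0.12, adjusted p = 0.0218), and CCNE2, cyclin E2, had 622 to 918 normalized counts (median 753) in LCC libraries, against 411 and 546 in parental libraries (0.68 ± 0.17, adjusted p = 0.0288). The median LCC level was within 2-fold of both parental levels in each. For all 8 called G1 and S members the parental level in MLM was nearer to the LCC level in MRM than the parental level in MRM was. The same held for 3 of the 8 called G2 and mitosis members, beside 72.9% of all called genes. CDC6 in MLM had 1954 to 2961 in LCC libraries, against 2610 and 2624 in parental libraries. Among mitotic genes, KIF23, a kinesin of cytokinesis, had 4651 to 5496 normalized counts (median 5053) in LCC libraries, against 3190 and 3068 in parental libraries (0.69 ± 0.08, adjusted p = 0.00235) and kept its call without each single library. BUB1B, a spindle checkpoint kinase, had 3719 to 4937 normalized counts (median 4351) in LCC libraries, against 2521 and 2477 in parental libraries (0.79 ± 0.11, adjusted p = 0.0032), and UBE2C, a ubiquitin conjugase of the anaphase complex, had 5644 to 10167 normalized counts (median 8446) in LCC libraries, against 4806 and 5211 in parental libraries (0.72 ± 0.19, adjusted p = 0.0397). BUB1B, KIF23, CCNB2 and NUSAP1 lie in runs on chromosome 15, which is 4 of the 8 mitotic calls, and FOXM1, PRC1 and ASPM were higher in MLM as well. MKI67, the Ki-67 proliferation marker, had 12822 to 19860 normalized counts (median 13977) in LCC libraries, against 13808 and 13355 in parental libraries and was not called (0.12 ± 0.16, adjusted p = 0.655). UBE2C lost its call without LCC1, LCC2, LCC3, LCC5, LCC6 or either parental library and CCNE2 without LCC5 or either parental library (0.66 to 0.83 for UBE2C and 0.47 to 0.88 for CCNE2). CDC6 lost it without parental library 1, and CDT1, RRM2 and BUB1B without either (0.75 to 0.86 for CDC6, 0.46 to 0.79 for CDT1, 0.4 to 0.7 for RRM2 and 0.75 to 0.84 for BUB1B).

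The promoter windows of CDC6, RRM2 and KIF23 are shown because the short motifs searched for are known from promoters of cell cycle genes. Searched on both strands were TTTNNCGC, a form of the E2F site, CCAAT, the NF-Y box, and TTTGAA, the cell cycle homology element. Each match is in capitals in the windows of 250 bases before to 50 after the RefSeq gene start (GRCh38.p14), which for CDC6 is chr17:40287629-40287928 on the plus strand, for RRM2 chr2:10122489-10122788 on the plus strand and for KIF23 chr15:69414099-69414398 on the plus strand.
CDC6: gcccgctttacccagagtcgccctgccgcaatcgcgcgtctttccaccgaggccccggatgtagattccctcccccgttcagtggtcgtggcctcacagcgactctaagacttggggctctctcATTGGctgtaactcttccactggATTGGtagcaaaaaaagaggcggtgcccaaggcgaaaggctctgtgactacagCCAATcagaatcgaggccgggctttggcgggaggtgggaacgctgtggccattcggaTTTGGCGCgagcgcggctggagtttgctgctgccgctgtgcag
RRM2: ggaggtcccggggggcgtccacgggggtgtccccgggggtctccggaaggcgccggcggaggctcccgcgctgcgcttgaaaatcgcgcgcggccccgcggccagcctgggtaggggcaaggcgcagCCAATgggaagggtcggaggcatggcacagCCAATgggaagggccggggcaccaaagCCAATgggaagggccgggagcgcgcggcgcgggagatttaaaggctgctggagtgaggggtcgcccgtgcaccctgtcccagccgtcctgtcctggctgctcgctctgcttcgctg
KIF23: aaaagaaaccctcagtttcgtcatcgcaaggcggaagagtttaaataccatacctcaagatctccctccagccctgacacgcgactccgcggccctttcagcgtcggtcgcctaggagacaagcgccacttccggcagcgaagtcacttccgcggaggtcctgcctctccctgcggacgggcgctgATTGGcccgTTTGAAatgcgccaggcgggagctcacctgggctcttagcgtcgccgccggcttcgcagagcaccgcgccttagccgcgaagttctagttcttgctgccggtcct
CDC6 holds 1 TTTNNCGC and 3 CCAAT, RRM2 holds 3 CCAAT, and KIF23 holds 1 CCAAT and 1 TTTGAA, with no overlap between matches. TTTNNCGC was in 64.0% of the 25 G1 and S promoters found, 12.5% of the 24 G2 and mitosis promoters, 10.4% of the promoters of tested genes and 6.90% of all promoters. CCAAT was in 68.0%, 87.5%, 36.5% and 35.7% of the same sets, and TTTGAA in 4.00%, 66.7%, 9.58% and 15.4%. Of the 16 cell cycle genes called higher 11 had a promoter in the table, of which 45.5% held TTTNNCGC, 72.7% CCAAT and 54.5% TTTGAA. The 3 printed windows have only the NF-Y box in common. A match is a description of letters and not a bound site.

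CDK inhibitors and growth restraint genes were called higher in 4 of 23 tested members and lower in 3 (median 0.19). TXNIP, a thioredoxin binding protein that limits glucose uptake, had 5703 to 9362 normalized counts (median 8019) in LCC libraries, against 1496 and 1912 in parental libraries (2.18 ± 0.19, adjusted p = 0.000621), and kept its call without each single library. KLF6, a growth suppressing factor, had 3454 to 6770 normalized counts (median 5075) in LCC libraries, against 2160 and 2061 in parental libraries (1.27 ± 0.21, adjusted p = 0.00671). CCNG2 and GADD45B were the other higher members. The 3 members lower in MRM were transcription regulators tied to quiescence. FOXO1 had 151 to 281 normalized counts (median 267) in LCC libraries, against 489 and 506 in parental libraries (−1.08 ± 0.25, adjusted p = 0.0224), FOXO4 had 112 to 145 normalized counts (median 133) in LCC libraries, against 262 and 248 in parental libraries (−0.96 ± 0.16, adjusted p = 0.00687), and RBL2, the pocket protein p130, had 2184 to 2635 normalized counts (median 2427) in LCC libraries, against 3585 and 3325 in parental libraries (−0.52 ± 0.1, adjusted p = 0.0104). The calls of these 3 and of KLF6 were lost without either parental library (−1.13 to −0.95 for FOXO1, −1.0 to −0.91 for FOXO4, −0.58 to −0.47 for RBL2 and 1.18 to 1.38 for KLF6). In MLM, RBL2 was instead called higher, with 2067 to 2373 in LCC libraries, against 1741 and 1725 in parental libraries. FOXO4 had 72.4 to 114 there, against 60.3 and 58.4, and FOXO1 157 to 262, against 245 and 235, neither of them called.

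Ligands for NK cells were called higher in 1 of 18 tested members and lower in 2 (median −0.22). ULBP2, a ligand of the activating receptor NKG2D, had 474 to 768 normalized counts (median 595) in LCC libraries, against 1267 and 1227 in parental libraries (−1.08 ± 0.17, adjusted p = 0.00627). ICAM1, the adhesion ligand of LFA-1, had 4316 to 6528 normalized counts (median 5127) in LCC libraries, against 10854 and 9793 in parental libraries (−0.98 ± 0.17, adjusted p = 0.00732). PVRL3, a nectin that binds TIGIT, had 1874 to 2178 normalized counts (median 2103) in LCC libraries, against 1188 and 1191 in parental libraries (0.79 ± 0.08, adjusted p = 0.00116), and kept its call without each single library. In MLM, ULBP2 had 342 to 415 in LCC libraries, against 297 and 302 in parental libraries and was not called there. MHC class I and peptide loading genes had 1 of 21 higher and none lower (median −0.22). HLA-G had 259 to 697 normalized counts (median 379) in LCC libraries, against 117 and 92.2 in parental libraries (1.99 ± 0.39, adjusted p = 0.013), with the limit that reads of HLA genes can be shared between near-identical paralogs. ULBP2, ICAM1 and HLA-G lost their calls without either parental library (−1.15 to −1.01 for ULBP2, −1.06 to −0.91 for ICAM1 and 1.82 to 2.16 for HLA-G).

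NF-kB subunits, cytokines and chemokines had 2 of 25 members higher and 4 lower (median −0.26; 1 and 5 without LCC6). CCL2, the monocyte chemoattractant, had 3.10 to 156 normalized counts (median 29.1) in LCC libraries, against 1268 and 1179 in parental libraries (−5.6 ± 1.18, adjusted p = 0.0169), and in MLM it was again lower. CSF2, the cytokine GM-CSF, had 234 to 513 normalized counts (median 404) in LCC libraries, against 1608 and 1196 in parental libraries (−1.92 ± 0.31, adjusted p = 0.00671). NFKB2, of the non-canonical pathway, had 1361 to 2284 normalized counts (median 1732) in LCC libraries, against 2975 and 2874 in parental libraries (−0.74 ± 0.19, adjusted p = 0.0327). In the other direction CX3CL1, a membrane-tethered chemokine, had 1074 to 2713 normalized counts (median 1917) in LCC libraries, against 519 and 430 in parental libraries (1.93 ± 0.32, adjusted p = 0.00687), also in both media. Interferon stimulated genes had 2 of 40 higher and 4 lower (median −0.02; 3 lower without LCC6). RSAD2, the antiviral enzyme viperin, had 8.52 to 27.9 normalized counts (median 17.5) in LCC libraries, against 69.6 and 68.5 in parental libraries (−2.0 ± 0.47, adjusted p = 0.0254), and IFI27 had 90.3 to 280 normalized counts (median 167) in LCC libraries, against 39.5 and 47.3 in parental libraries (1.81 ± 0.4, adjusted p = 0.02), so single genes of the response moved in opposite directions. NFKB2 lost its call without LCC1 or LCC5 and, like the other 5, without either parental library (−0.82 to −0.67 for NFKB2, −6.12 to −5.07 for CCL2, −2.13 to −1.71 for CSF2, 1.8 to 2.08 for CX3CL1, −2.14 to −1.82 for RSAD2 and 1.64 to 1.97 for IFI27).

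Keratins were called higher in 4 of 14 tested members and lower in none (median 0.66; 3 without LCC6 and 2 with LCC5 and LCC6 as 1). KRT75, a type II keratin, had 471 to 4143 normalized counts (median 1869) in LCC libraries, against 252 and 319 in parental libraries (2.54 ± 0.65, adjusted p = 0.0338), and was higher in MLM as well. KRT7, of simple epithelia, had 19606 to 54260 normalized counts (median 23565) in LCC libraries, against 10147 and 10193 in parental libraries (1.35 ± 0.34, adjusted p = 0.0314), with LCC4 far above the rest. KRT19 had 12014 to 26901 normalized counts (median 14914) in LCC libraries, against 7120 and 8101 in parental libraries (1.08 ± 0.26, adjusted p = 0.0262). KRT6A, of stressed epithelium, had 7.74 to 135 normalized counts (median 41.2) in LCC libraries, against 1.58 and 0 in parental libraries, a ratio of 55.6 with an exact 95% counting interval of 9.86 to 2210, since it rests on 1 parental read (adjusted p = 0.0123), and its reads can be shared with KRT6 paralogs. In MLM every LCC library was instead below the parental ones in KRT6A, with 11.5 to 530, against 581 and 592, and it was not called there. KRT6A, KRT7 and KRT75 are neighbours in a chromosome 12 run. Epithelial junction and splicing genes had 3 of 35 higher and none lower (median 0.39; 2 without LCC6), and DSC2, a desmosomal cadherin, had 1310 to 2432 normalized counts (median 1766) in LCC libraries, against 778 and 799 in parental libraries (1.12 ± 0.22, adjusted p = 0.0136). Lung and airway identity genes had 4 of 23 higher and 1 lower (median 0.73). CEACAM6, an epithelial adhesion molecule raised in many carcinomas, had 4451 to 19506 normalized counts (median 9096) in LCC libraries, against 702 and 605 in parental libraries (3.76 ± 0.51, adjusted p = 0.00316), and ABCA3, the surfactant lipid transporter, had 2645 to 4538 normalized counts (median 3251) in LCC libraries, against 6182 and 5745 in parental libraries (−0.83 ± 0.18, adjusted p = 0.0199). KRT75 lost its call without LCC1, LCC5 or LCC6, KRT7 without LCC1 or LCC5 and KRT19 without LCC5, and all these genes did so without either parental library (2.28 to 2.91 for KRT75, 1.14 to 1.43 for KRT7, 0.93 to 1.17 for KRT19, 4.03 to 5.4 for KRT6A, 1.02 to 1.2 for DSC2, 3.53 to 3.95 for CEACAM6 and −0.91 to −0.76 for ABCA3).

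NRF2 targets and antioxidant genes were called higher in 6 of 22 and lower in none (median 0.36; 5 without LCC6). GCLC, the rate-limiting enzyme of glutathione synthesis, had 9477 to 14513 normalized counts (median 10642) in LCC libraries, against 5418 and 5150 in parental libraries (1.1 ± 0.16, adjusted p = 0.00387). AKR1C3, an aldo-keto reductase with close paralogs, had 734 to 1338 normalized counts (median 1008) in LCC libraries, against 397 and 444 in parental libraries (1.21 ± 0.22, adjusted p = 0.00981). NQO1, TXNRD1 and FTH1 were also called higher. Amino acid transporters had 3 of 20 higher and 1 lower (median −0.10; 2 lower under library total scaling or with edgeR). SLC1A1, a glutamate transporter, had 78.7 to 710 normalized counts (median 487) in LCC libraries, against 38.0 and 26.0 in parental libraries (3.33 ± 0.81, adjusted p = 0.0288), SLC38A4, a neutral amino acid transporter, had 97.5 to 637 normalized counts (median 193) in LCC libraries, against 28.5 and 30.7 in parental libraries (2.86 ± 0.59, adjusted p = 0.0157), and SLC7A2, a cationic amino acid transporter, had 19.7 to 93.8 normalized counts (median 58.6) in LCC libraries, against 677 and 648 in parental libraries (−3.58 ± 0.52, adjusted p = 0.00404). In the list of MiT/TFE, lysosome and mTORC1 amino acid sensing genes 3 of 31 were lower and none higher (median 0.08; 4 lower without LCC6 and 5 under library total scaling). RRAGD, a Rag GTPase that reports amino acids to mTORC1, had 19.5 to 103 normalized counts (median 51.6) in LCC libraries, against 808 and 908 in parental libraries (−4.12 ± 0.6, adjusted p = 0.00401), and TFEB and CTSF were the other members. SLC1A1 lost its call without LCC1, and all of these genes with values given lost it without either parental library (1.03 to 1.16 for GCLC, 1.12 to 1.29 for AKR1C3, 3.06 to 3.73 for SLC1A1, 2.56 to 3.1 for SLC38A4, −3.73 to −3.29 for SLC7A2 and −4.34 to −3.87 for RRAGD).

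Lipid, glycolysis and stress lists had 6.9% to 15.8% of tested members called, beside 14.6% of all genes tested. Cholesterol synthesis and SREBP targets had no member higher and 3 of 23 lower (median −0.15; 6 lower under library total scaling), among them MVD, of the mevalonate pathway, with 1143 to 1551 normalized counts (median 1246) in LCC libraries, against 1947 and 1985 in parental libraries (−0.62 ± 0.12, adjusted p = 0.0117). Fatty acid synthesis, elongation and desaturation genes had 2 of 22 lower, ELOVL4 and ACSL1, and none higher (median 0.03; without LCC6, 1 higher and none lower). Glycolysis and hypoxia genes had 2 of 33 higher and 2 lower (median 0.13; 1 lower without LCC6 and none with LCC5 and LCC6 as 1). HK2, a hexokinase, had 5555 to 8784 normalized counts (median 7692) in LCC libraries, against 11138 and 10720 in parental libraries (−0.58 ± 0.16, adjusted p = 0.0443). The unfolded protein and integrated stress response list had 2 of 29 lower and none higher (median −0.29; 3 lower without LCC6, 5 under library total scaling), and SEL1L, of ER-associated degradation, had 5179 to 6603 normalized counts (median 5795) in LCC libraries, against 9508 and 7804 in parental libraries (−0.57 ± 0.11, adjusted p = 0.0122). Heat shock chaperones had 2 of 19 higher and 1 lower (median 0.16; 3 and 1 without LCC6, 1 and 2 under library total scaling), with DNAJB1, an HSP40 cochaperone, at 4292 to 6896 normalized counts (median 6070) in LCC libraries, against 2843 and 3219 in parental libraries (0.96 ± 0.16, adjusted p = 0.00753). HK2 lost its call without LCC1, LCC5 or LCC6, and all 4 without either parental library (−0.68 to −0.59 for MVD, −0.63 to −0.5 for HK2, −0.71 to −0.42 for SEL1L and 0.87 to 1.05 for DNAJB1).

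The remaining lists had few calls as well. BCL2 family and death receptors had 2 of 27 higher and none lower (median 0.13; 1 higher without LCC6), and BMF, a BH3-only death protein in the chromosome 15 run, had 428 to 1004 normalized counts (median 653) in LCC libraries, against 182 and 201 in parental libraries (1.72 ± 0.3, adjusted p = 0.00888). Smooth muscle contractile genes had 3 of 17 higher and none lower (median 0.20; 1 lower without LCC6 or under library total scaling), with TPM1, tropomyosin 1, at 1031 to 1389 normalized counts (median 1234) in LCC libraries, against 588 and 631 in parental libraries (0.99 ± 0.12, adjusted p = 0.00242). Cytosolic ribosomal proteins had 2 of 47 higher and none lower (median 0.02). Both lie in runs, and RPL37 had 22421 to 30196 normalized counts (median 25157) in LCC libraries, against 13643 and 13608 in parental libraries (0.9 ± 0.12, adjusted p = 0.00287). Potassium channels and glutamate receptors had 1 of 22 higher, GRIK2, and 2 lower, KCNJ12 and KCNAB2 (median −0.16). Replication-dependent histones had 2 of 8 higher (median 0.32) and metallothioneins 1 of 6, MT1E (median 0.68), with none lower, and neither list had a call without LCC6. TPM1 lost its call without parental library 1, and BMF and RPL37 without either (0.94 to 1.04 for TPM1, 1.59 to 1.83 for BMF and 0.85 to 0.94 for RPL37).

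Markers of other cell types were checked as lists. Of the leukocyte markers 1 of 4 tested was called, lower. That was LAPTM5, a lysosomal membrane protein, with 121 to 703 normalized counts (median 291) in LCC libraries, against 2015 and 1893 in parental libraries (−2.65 ± 0.65, adjusted p = 0.0292), and 2 of the 4 were called lower without LCC6 or under library total scaling. The other 3 tested were not called: CD14 with 7.74 to 41.0 in LCC libraries, against 94.9 and 94.5 in parental libraries (−2.0 ± 0.58, adjusted p = 0.0506), CD68 with 5070 to 8330, against 7110 and 7140 (−0.17 ± 0.19, adjusted p = 0.568), and CSF1R with 46.5 to 305, against 56.9 and 61.4 (0.75 ± 0.63, adjusted p = 0.448). MS4A1 and TYROBP were at 0 in all 8 libraries, and PTPRC reached at most 3.91 in LCC libraries and was at 0 in parental ones. The summed list was 5270 to 9220 in LCC libraries and 9200 and 9290 in parental ones. Endothelial markers had 1 of 6 lower, PECAM1, with 17.1 to 37.2 normalized counts (median 29.0) in LCC libraries, against 55.4 and 78.0 in parental libraries (−1.21 ± 0.34, adjusted p = 0.0471), and none without LCC6. The fold changes of the other 5 were positive and not called. KDR had 8.55 to 263 in LCC libraries, against 1.58 and 4.73 in parental libraries (3.32 ± 1.16, adjusted p = 0.0877), and CDH5 had 1.47 to 109, against 0 in both (adjusted p = 0.0825). ERG had 9.77 to 151, against 26.9 and 26.0, ESAM had 197 to 676, against 272 and 321, and TEK had 13.2 to 26.9, against 4.74 and 21.3. The endothelial sums were 333 to 994 in LCC libraries and 367 and 468 in parental ones, and CLDN5 was at 3.59 or less. Fibroblast markers had 0 of 3 called, with sums of 475 to 959 and of 1040 and 1090 and DPT at 0, and kidney tubule markers 0 of 3, with sums of 162 to 439 and of 323 and 331 and UMOD and CDH16 at 0. The call of PECAM1 was lost without LCC1, LCC2, LCC4, LCC5 or LCC6, and both calls without either parental library (−2.89 to −2.38 for LAPTM5 and −1.45 to −0.97 for PECAM1).

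The 6 derivatives also differed from each other. Relative to the median of the other 5, the share of 10548 genes more than 1 log2 unit away was 1.86% in LCC1, 4.22% in LCC2, 2.85% in LCC3, 5.5% in LCC4, 1.47% in LCC5 and 1.66% in LCC6. Some genes were high in some derivatives and near 0 in others, with no test, since they were chosen for that. ZNF711, an X-linked zinc finger gene, had 315, 308 and 211 normalized counts in LCC1, LCC3 and LCC4 and 0 in LCC2, LCC5 and LCC6, against 0 and 4.73 in parental libraries. AUTS2, a Polycomb-associated regulator, split the same way, with 324, 296 and 440 in LCC1, LCC3 and LCC4 and 1.71 to 10.3 in the other 3, against 127 and 130 in parental libraries. The glutathione transferase gene GSTP1 split in the opposite way, with 794, 1357 and 1505 in LCC2, LCC5 and LCC6 and 37.5, 6.19 and 25.4 in LCC1, LCC3 and LCC4, against 607 and 681 in parental libraries. In MLM, GSTP1 kept this split among the derivatives, with 988, 1599 and 1571 against 140, 1.28 and 15.5, and parental libraries had 4469 and 4669. The split between derivatives was thus stable across media while the parental level was not.

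The GSTP1 promoter window, 250 bases before to 50 after the RefSeq gene start (GRCh38.p14, chr11:67583562-67583861, plus strand), is shown because this promoter is known as a CpG island that is methylated in some cancers. Its CG dinucleotides, the same on both strands, are in capitals, and there are 36 of them.
GSTP1: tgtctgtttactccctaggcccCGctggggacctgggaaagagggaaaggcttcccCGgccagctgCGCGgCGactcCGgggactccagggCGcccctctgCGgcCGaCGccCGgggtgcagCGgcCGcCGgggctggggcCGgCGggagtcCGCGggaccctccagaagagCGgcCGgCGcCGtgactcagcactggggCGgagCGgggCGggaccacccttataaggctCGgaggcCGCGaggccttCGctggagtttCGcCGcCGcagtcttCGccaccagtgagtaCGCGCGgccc
Methylation of the window was not measured here.

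Other such genes marked 1 derivative or a few. TIMP3, a metalloprotease inhibitor, had no reads in LCC2 and 1734 to 3127 in the other 5, against 565 and 586 in parental libraries. PXDN, a matrix peroxidase, had 5669 in LCC1, 4376 in LCC3, 2387 in LCC4, 646 in LCC5, 104 in LCC6 and 14.7 in LCC2, against 69.6 and 63.8 in parental libraries. TACR1, the substance P receptor, was highest in LCC2 with 724, and LAMC3, a laminin chain, was highest in LCC1 with 517. LCC4 led in KRT4, a mucosal keratin, with 19686 beside 295 to 1907 in the other derivatives. It also led in GRHL2, an epithelial factor, with 2153 beside 3.10 in LCC3. SLC43A3 was low in LCC5 and LCC6, with 43.0 and 49.6 beside 793 to 5279 elsewhere. IGFBP1, an insulin-like growth factor binding protein, ran from 131 in LCC2 to 4596 in LCC3, against 487 and 480 in parental libraries. COL5A1 had 737 in LCC5 and 636 in LCC6 in MRM, against 950 and 25.8 in MLM, and GRHL2 had 198 in LCC6 in MRM and 5.54 in MLM, which are among the genes in which LCC6 in MRM resembles LCC5.

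**Figure D3:**
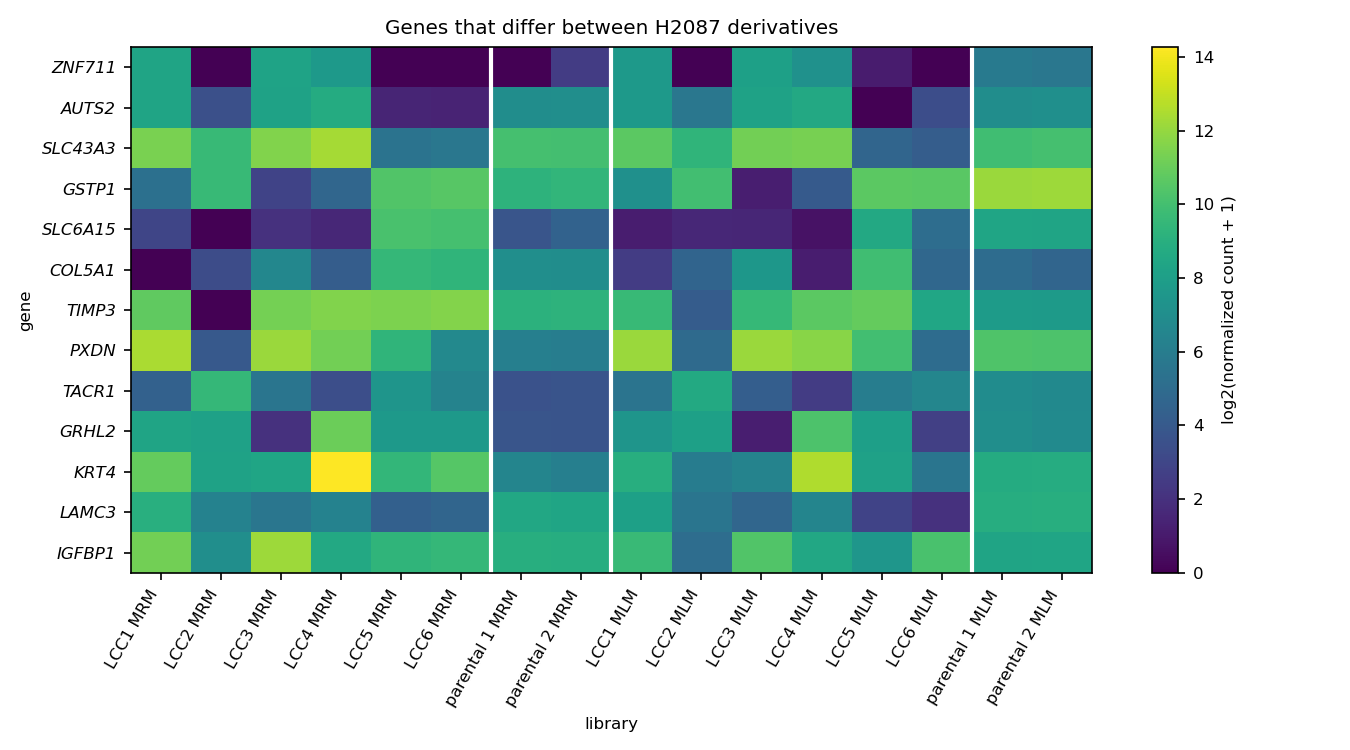
Colour gives log2(normalized count + 1) of 13 genes (rows) in each of the 16 H2087 libraries (columns), LCC and then parental libraries in MRM and then in MLM. ZNF711 and AUTS2 are high in LCC1, LCC3 and LCC4, and GSTP1 in LCC2, LCC5 and LCC6.

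Neighbouring genes deviated together in each derivative, most often on chromosome 11. Relative to the median of the other derivatives, runs of neighbours stood above in LCC1 (8 runs), LCC2 (8) and LCC4 (15) and below in LCC3 (12), LCC5 (9) and LCC6 (8) on that chromosome. Their medians ran from 0.38 to 0.78 above and from −0.56 to −0.40 below. DNA copy number was not measured here.

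Genes that differed between LCC and parental libraries also lay in runs. With genes in chromosome order, a run is a set of joined windows of 11 neighbouring tested genes in which at least 9 shared the sign of the fold change and the median was at least 0.5 in size. There were 34 runs with 715 of the 12449 genes placed, 27 of them higher and 7 lower, 8 on chromosome 15 and 6 on chromosome 19. Of the genes in runs 277 were called (38.7%), and of those outside 1541 of 11734 (13.1%), a description, since the same fold changes defined the runs. The longest ran from TERT to ITGA1 on chromosome 5, with 75 genes at a median of 0.74, of which 49 were called higher and 1 lower. It holds CMBL and RPL37. In the same genes parental libraries differed between MRM and MLM by a median of −0.89 and LCC libraries by −0.05, and LCC and parental libraries in MLM by −0.03. The run from ZMAT2 to PCDHGA11 on chromosome 5, over the clustered protocadherins, had 35 genes and a median of 1.39. Variable exons of PCDHG genes share constant exons, so reads can be split between them.

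**Figure D4:**
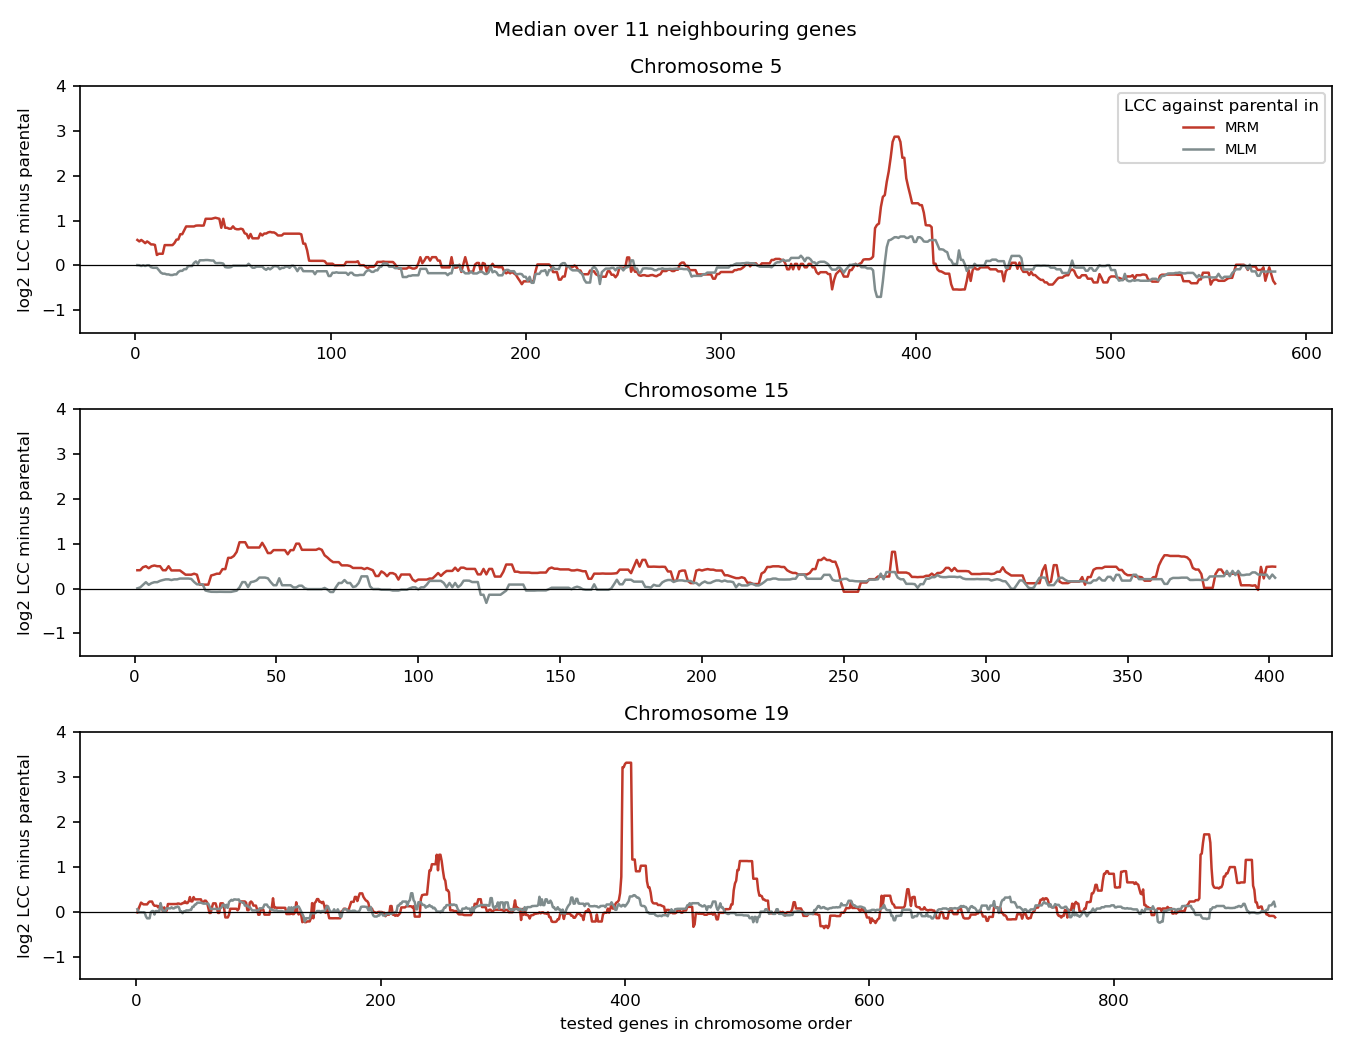
Lines give the median log2 difference of LCC minus parental libraries over 11 neighbouring tested genes, in chromosome order, on chromosomes 5, 15 and 19, in MRM (red) and MLM (grey). The MRM line leaves 0 over the runs named in the text, such as the 75 genes from TERT to ITGA1, while the MLM line stays near 0 over most of them.

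On chromosome 15 the run from GOLGA8A to VPS39 held 54 genes at a median of 0.73, among them BUB1B, THBS1, SPRED1 and BMF. On chromosome 19 the runs from EPN1 to ZNF497 (54 genes, 0.65), ZNF175 to TFPT (46, 0.61), PBX4 to C19orf12 (34, 0.73) and ZFP14 to PPP1R14A (29, 0.69) held 49, 37, 25 and 25 genes named ZNF, ZSCAN or ZFP, which is 90.7%, 80.4%, 73.5% and 86.2% of each run beside 24.6% of the 932 tested genes on the chromosome. Of the other chromosome 19 runs, ELOF1 to MAN2B1 held 22 genes so named among 25. ZNF285 to CLPTM1 held only 3 among 12, a share close to that of all tested genes on the chromosome. The parental difference between media was larger than the LCC difference in 28 of the 34 runs, and the LCC difference from parental cells was smaller in MLM than in MRM in 33. The runs were chosen by the MRM difference itself, with the same parental libraries, which favours both counts. These counts, and the medians of runs between media, are therefore descriptions and were not tested.

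Some genes differed from parental cells in both media. Of the 1094 genes called higher in MRM, 124 were also called higher in MLM (11.3% of the MRM and 20.1% of the 616 MLM calls), and of the 728 called lower, 156 (21.4% and 14.2% of 1095). In MLM 4.94% of tested genes were called higher and 8.77% lower. COL8A1, COL6A1, CX3CL1 and KRT75 were among the higher ones. ENTPD3, an ectonucleotidase, had 279 to 721 normalized counts in LCC libraries, against 44.3 and 33.1 in parental libraries, in MRM, and 331 to 923, against 143 and 139, in MLM. IRX3, a homeobox gene, had 535 to 1664, against 153 and 170, in MRM and 559 to 1196, against 390 and 400, in MLM. The genes lower in both media included CCL2, RRAGD, SLC7A2, WNT10B and FGFR4. ELMOD1, a GTPase activating protein gene, had 5.38 to 82.1 normalized counts (median 19.9) in LCC libraries, against 375 and 399 in parental libraries, in MRM (−4.16 ± 0.99, adjusted p = 0.0262), and in MLM 1.14 to 28.2 in LCC libraries, against 341 and 290 in parental libraries. TNFRSF1B, the TNF receptor TNFR2, had 39.1 to 248, against 1009 and 1040, in MRM and 37.5 to 161, against 581 and 605, in MLM. UCHL1, a neuronal deubiquitinase, had 131 to 532, against 821 and 830, in MRM and 23.4 to 431, against 2057 and 2086, in MLM. The call of ELMOD1 in MRM was lost without either parental library (−4.54 to −3.8 for ELMOD1).

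The difference in LCC effect between the media was tested directly, as an interaction over the 16 libraries. Of 12535 genes tested, 1344 (10.7%) were called, 832 (6.64%) with a more positive effect in MRM and 512 (4.08%) with a more negative one. With the derivative or parental number as a replicate block, 3426 were called, 1980 and 1446. This block assumes a pairing by number that has little support for the parental libraries. Leaving LCC6 out in both media gave 1349 calls, and 3566 with the block, 2096 and 1470. Among the 1822 genes called in MRM the interaction was called for 622 (34.1%), and among the 109 named here for 52. The same MRM libraries enter both calls, and some of the 109 were chosen for a large interaction. Both counts are therefore descriptions. Among these 52 the largest were KRT6A (7.57 ± 1.66, adjusted p = 0.0102), ADAMTS4 (−7.34 ± 0.76, adjusted p = 6.86e-05) and MME (6.62 ± 1.79, adjusted p = 0.0301), each with few reads in 1 or more groups, so that the size depends on the added 1. FN1 (2.99 ± 0.77, adjusted p = 0.0222), SOX4 (2.69 ± 0.72, adjusted p = 0.0281) and KITLG (2.68 ± 0.28, adjusted p = 7.62e-05) had more positive effects in MRM, and ULBP2 (−1.38 ± 0.2, adjusted p = 0.000786) and UNC5B (−4.19 ± 0.53, adjusted p = 0.00029) more negative ones. No interaction was called for SOX9 (0.2 ± 0.2, adjusted p = 0.577), COL8A1 (0.09 ± 0.5, adjusted p = 0.932), RRAGD (−0.84 ± 0.96, adjusted p = 0.628) or SLC7A2 (0.15 ± 1.18, adjusted p = 0.955), which does not show that the effects were equal. Leaving out a parental library gave 426 to 651 calls, the lowest without parental library 1 in MLM, and 432 without parental library 2 in MLM.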

How the data were processed

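The deposited tables hold 1 value per gene and library, a normalized signal per the file headers. Builds hg19 and GRCh37 and the tools DESeq2 1.8.1, HTSeq 0.6.1p1 and Bowtie2 2.2.4 are listed, without roles, in the submitters' processing notes. The counting strand is not given in the sources used here. In each library the deposited signal values were all whole multiples of a single step (tolerance 0.01 reads, 100% of values), so each is a read count over a size factor, and reads were recovered from it. Size factors recomputed over both media together differed from these by at most 1.74e-09, so both media share 1 normalization and could be tested together.

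LCC and parental libraries were compared with limma 3.58.1 in R 4.3.3 (trended prior variance, two-sided) on log2(value + 1), for genes with a mean of at least 10, at a Benjamini-Hochberg adjusted p under 0.05. The interaction between media used the same method on 16 libraries. Alternatives were edgeR 4.0.16 (quasi-likelihood test) and DESeq2 1.42.0 on the recovered reads, other scalings, filters and pseudocounts, and single omissions. Scripts were tested on simulated data. Same-numbered LCC libraries in the 2 media are the same derivative by label, and their deviations correlated at 0.415 to 0.773. LCC6 in MRM correlated more with LCC5 in MLM (0.53) than with its own number (0.415). The difference between parental libraries 1 and 2 correlated at 0.139 between media, which gives little support for pairing them by number. The replicate block rests on these pairings.

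Members, lists and tests were chosen with earlier results of these data known. Genes named are those with the largest fold changes or smallest p among calls (mean at least 100), called members of each list, genes with the largest interaction, genes that set 1 derivative apart, and genes named at the outset, of which a subset is printed; some others are not reported here. Gene order and promoters come from RefSeq (GRCh38.p14), and 81.0% of tested genes had a promoter. The 12 chromatin samples were not analysed here, and parental library 3 in MLM has no column in the tables used.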

Additional observations from a re-analysis of the deposited data

Results flagged for a closer look

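Single LCC libraries stood apart in 7 of the 123 genes named, by the gap to the nearest of the other 5 as a share of the range, with 0.625 as the 95% critical value for 6 samples. Chance gives about 1 such gene in 20 where genes are not chosen for it. Some of the 123, TIMP3 among them, were chosen because 1 derivative stood apart, so the count is a description. LCC4 was lowest in ADAMTS4 (0.803) and COL6A1 (0.633) and highest in FGF19 (0.889) and KRT7 (0.765). LCC2 was lowest in DNAJB1 (0.655) and in TIMP3 (0.927), which had no read there. LCC6 was lowest in ZSCAN18 (0.654).

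In 52 of the 109 genes called and named, the LCC effect differed between MRM and MLM by the interaction test. The share was 34.1% of all genes called in MRM and 10.7% of all genes tested for the interaction. The 109 were chosen by their MRM calls, from libraries that also enter the interaction, and some by the size of the interaction. Their count is therefore a description. The values are the LCC effect in MRM minus that in MLM, in log2 units. The largest positive differences were those of KRT6A 7.57, MME 6.62, CRISPLD1 6.36, DKK1 6.07, ZNF93 5.45, MARK1 4.83, ZSCAN18 4.78, VCAN 4.68, CMBL 4.28, GRIK2 3.80, SPOCK1 3.66 and SLC38A4 3.44. Smaller positive differences were those of BMP4 3.35, FN1 2.99, TGFB2 2.78, SOX4 2.69, KITLG 2.68, SOX21 2.41, ZDHHC14 2.29, KLF12 2.23, CAMK2N1 2.13, SFN 1.85, NTN4 1.49 and JUN 1.49. The positive differences of least size were those of TXNIP 1.39, KLF6 1.30, EFNB2 1.27, FOSL1 1.14, PLAT 1.07, CCND1 1.06, SEMA3A 1.05, RPL37 0.99, TPM1 0.81 and CDC6 0.79. The most negative differences were those of ADAMTS4 −7.34, UNC5B −4.19, LAPTM5 −3.74, DMBT1 −3.54, INHBE −2.75, SH3TC1 −2.34, C1S −2.20, CSF2 −2.15 and ITGB3 −2.08. Smaller negative differences were those of PECAM1 −1.75, FOXO4 −1.56, ACSS2 −1.39, ULBP2 −1.38, IER3 −1.28, MVD −1.04, ICAM1 −0.90, RBL2 −0.89 and SEL1L −0.80. Medium and depth move together in these libraries, and no cause was tested.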

How the results depend on the processing

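Pseudocounts of 0.5 and 5, no filter on low values, a mean of at least 50, TMM scaling and edgeR gave between 1654 and 1823 genes called in MRM, beside 1822. DESeq2 gave 2753 (1137 lower), a spread shared with the MLM libraries gave 2798 (1281 lower), and scaling to library totals gave 1207 lower. Leaving out 1 library gave 143 to 2284 genes, 129 to 1306 higher and 14 to 978 lower. The lowest counts came without parental library 1 or 2 and then without LCC5, with 1205 genes (446 lower). The highest came without LCC4. The cause was not tested.

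For the difference between media, DESeq2 gave 835 genes more negative in MRM, beside 512. The replicate block gave 3426 genes, 1980 more positive and 1446 more negative. It kept the calls of all 52 named genes. With LCC6 left out in both media, chosen after seeing the data, the block gave 3566 genes, 2096 and 1470. Omissions gave 426 to 1622 genes, 325 to 966 and 81 to 656. Within MRM no paired analysis was possible because LCC and parental numbers name different things.

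Of the 110 genes tested and named, edgeR and limma disagreed on 2, and none reversed under any alternative. The 2 parental libraries and the 12.1 M reads of 1 of them limit the precision of low genes, where 1 read is worth up to 2.36.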

Other observations

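Zinc finger genes named ZNF, ZSCAN or ZFP were looked at as a family after their values were seen, so no test is given. Of the 229 tested on chromosome 19, 85 were called higher in LCC libraries in MRM and 0 lower (37.1%, median fold change 0.55). Of the 245 on other chromosomes, 42 were higher and 6 lower (19.6%, median 0.11), and of the 703 other genes on chromosome 19, 46 were higher and 27 lower (10.4%, median 0.01). In the chromosome 19 family parental libraries differed between MRM and MLM by a median of −0.58, LCC libraries by −0.11, and LCC from parental libraries in MLM by 0.06. ZNF85 had 155, 154, 85.2, 72.3, 82.5 and 42.7 normalized counts in LCC1 to LCC6, against 3.2 and 0 in parental libraries in MRM, while in MLM the parental libraries had 86.2 and 68.3. ZNF486 had 27.4 to 101 in LCC libraries, against 4.7 and 0. Reads of zinc finger paralogs can be shared between family members.

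Clustered protocadherins on chromosome 5, cell surface proteins that mark single neurons, were called higher in 16 of 36 tested members and lower in 0 (44.4%, median 1.46). Over all genes tested 8.76% were called higher and 5.83% lower. This family too was chosen after the runs of neighbouring genes were seen, so no test is given. In 8 of the 36 the parental mean in MRM was under 10. PCDHB13 had 405 to 1249 normalized counts in LCC libraries, against 72.7 and 66.2 in parental libraries (fold change 3.27 ± 0.40). PCDHB16 had 120 to 276, against 15.8 and 16.5 (3.47 ± 0.29). In this family LCC libraries stayed above parental libraries in MLM by a median of 0.53. Reads of neighbouring members can be shared.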
